A study of Mus musculus with 28 samples.

Results

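Zbtb16, Fkbp5, Tsc22d3, Sgk1 and Dusp1, which glucocorticoids are known to induce, and Nr3c1, which encodes the glucocorticoid receptor, were followed across 4 diets in the livers of mice deficient in CAR, the constitutive androstane receptor, and of wild-type mice. The members were the probe sets annotated to these 6 genes, 20 of the 45037 probe sets measured (18193 genes), and each gene was represented by a lead probe set, the one with the highest mean over all 28 arrays.

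Glucocorticoids reach the liver from the adrenal cortex and bind the receptor, which chaperones of the Hsp90 family hold in the cytosol in a form able to take up hormone. The bound receptor enters the nucleus, attaches to response elements in DNA and raises or lowers transcription of its targets. In the liver the hormone is known for promoting glucose output and amino acid breakdown, and several of its targets, Fkbp5 among them, feed back on the receptor or on signalling kinases.

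All mice were females of strain C3H/HeN, 5 weeks old on arrival and acclimated for 1 week, and liver RNA of each mouse was hybridized to its own Affymetrix mouse genome array. They received a liquid isocaloric diet holding ethanol with ellagic acid (EA), ethanol with trans-resveratrol (RSV), ethanol alone (EtOH) or no ethanol (control), freely for 1 week and then at 12 g per day for 4 weeks, with about 50 mg of the polyphenol per kg body weight per day in the EA and RSV diets. Each diet had 3 CAR deficient mice and 4 wild-type mice, and livers were taken in the morning from all groups. How the CAR deficient line was made is not given in the sources used here.

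The values are on a log2 scale and were summarised by the Distribution Free Weighted (DFW) method, apart for each genotype. DFW changes the spread of probe sets unequally. A difference given here is therefore a difference of DFW values and no calibrated fold change, and levels were compared neither between genes nor between genotypes. Probe sets whose SD did not exceed 0.01 are called compressed here, and made up 79.3% in CAR deficient livers and 85.3% in wild-type livers. The 6 lead probe sets were not among these, so a share over all probe sets is no like-for-like background for them. Diets were compared by limma with all 4 diets of a genotype in one fit, with p-values adjusted by the Benjamini-Hochberg method across the whole array and called under 0.05. The number of arrays limits the precision.

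The hepatocyte genes Alb, Ttr, Apoa1 and Hnf4a lay above at least 98.8% of probe sets in both genotypes. The top of the scale differed between the genotypes. Alb ran from 27.23 to 27.25 in CAR deficient livers and was 14.55 in wild-type livers. Apoa1 ran from 14.17 to 17.94 in CAR deficient and from 14.18 to 14.31 in wild-type livers. In CAR deficient livers 6 probe sets exceeded 15, and none of the members did. The single probe set of Nr1i3, the gene of CAR, ran between 8.55 and 9.49 in CAR deficient livers and between 8.96 and 10.10 in wild-type livers. Because the genotypes were summarised apart, and it is not known whether the probes lie in the deleted part, this does not check the label. The array of CAR deficient EtOH replicate 1 stood apart, with a mean correlation of 0.9826 with the arrays of its genotype, against 0.9889 to 0.9932 for the other 11. The CAR deficient differences that it moved by more than 1.5 times are given with and without it.

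Of the members, Sgk1 held a full palindromic response element, the arms AGAACA and TGTTCT set apart by 3 free bases, in 1 of its 6 promoter windows of RefSeq (build GRCm38.p6, 250 bases before to 50 after a transcript start). The stretch around the match is shown because it is the only such match among the members' windows. The match lies at chr10:21993701-21993715 on the plus strand and begins at position -189 from the transcript start. The capitals mark the 15 letters of the element.
Sgk1: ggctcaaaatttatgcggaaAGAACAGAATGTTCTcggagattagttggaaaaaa
The full element, which reads the same on both strands, was found in 3 of 32851 windows of all genes (0.00913%). Its single arm TGTTCT, searched on both strands and contained in the full element, was found in 3 of 6 windows of Sgk1, in 1 of 3 of Tsc22d3 and in none of Fkbp5 and Dusp1 (1 window each), against 19.0% of all windows. Zbtb16 and Nr3c1 had no window to search. A match of letters is a description and shows no binding.

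Zbtb16, a zinc finger transcription factor that represses transcription, was the only member called in EtOH against control in wild-type livers. At its lead probe set (1442025_a_at) the values were 8.62, 8.14, 8.09 and 8.79 in the EtOH livers and 6.53, 6.69, 6.22 and 7.04 in the control livers. Each EtOH liver was above each control liver, with the lowest EtOH liver more than 1 unit above the highest control liver. The means were 8.41 ± 0.35 in EtOH and 6.62 ± 0.34 in control livers (SD, n = 4 each), a difference of 1.79 (SE 0.32, adjusted p = 0.00843 by limma). Of the 6 members 1 was called, higher, where 5.55% of all probe sets were called, 2.2% higher and 3.35% lower. It was also the only one whose EtOH and control livers did not overlap, which 12.5% of all probe sets shared. The call held in each of the 16 fits that left out an array.

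With EA added to ethanol, Zbtb16 stood between these levels. The EA livers had 7.58, 6.96, 7.30 and 7.61, all below the 4 EtOH livers and, except for the second, above the control livers. Their mean of 7.36 ± 0.30 was 1.05 below that of the EtOH livers (SE 0.32, adjusted p = 0.112 by limma), which did not pass, and 0.74 above that of the control livers (adjusted p = 0.14 by limma). The groups EA and EtOH did not overlap in 4 of the 6 members, against 9.45% of all probe sets. Among the uncompressed probe sets alone, the difference between EA and EtOH had an adjusted p of 0.0235 by limma. There limma was fitted anew (SE 0.30) and fewer tests were adjusted for. In that fit 1558 probe sets were called, a far larger share than over all probe sets.

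With RSV added, Zbtb16 spread widely. The RSV livers had 9.14, 8.56, 7.45 and 8.20, the first above each EtOH liver and the third below each of them. The mean of 8.34 ± 0.70 was 1.71 above that of the control livers (SE 0.32, adjusted p = 0.00355 by limma), without overlap. Against EtOH it differed by -0.075 (95% interval -0.76 to 0.61, adjusted p = 0.939 by limma). EA and RSV livers differed by -0.97 (95% interval -1.66 to -0.29, adjusted p = 0.444 by limma). In the order of wild-type means, EtOH, RSV, EA and control, no neighbours passed the test.

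**Figure D1:**
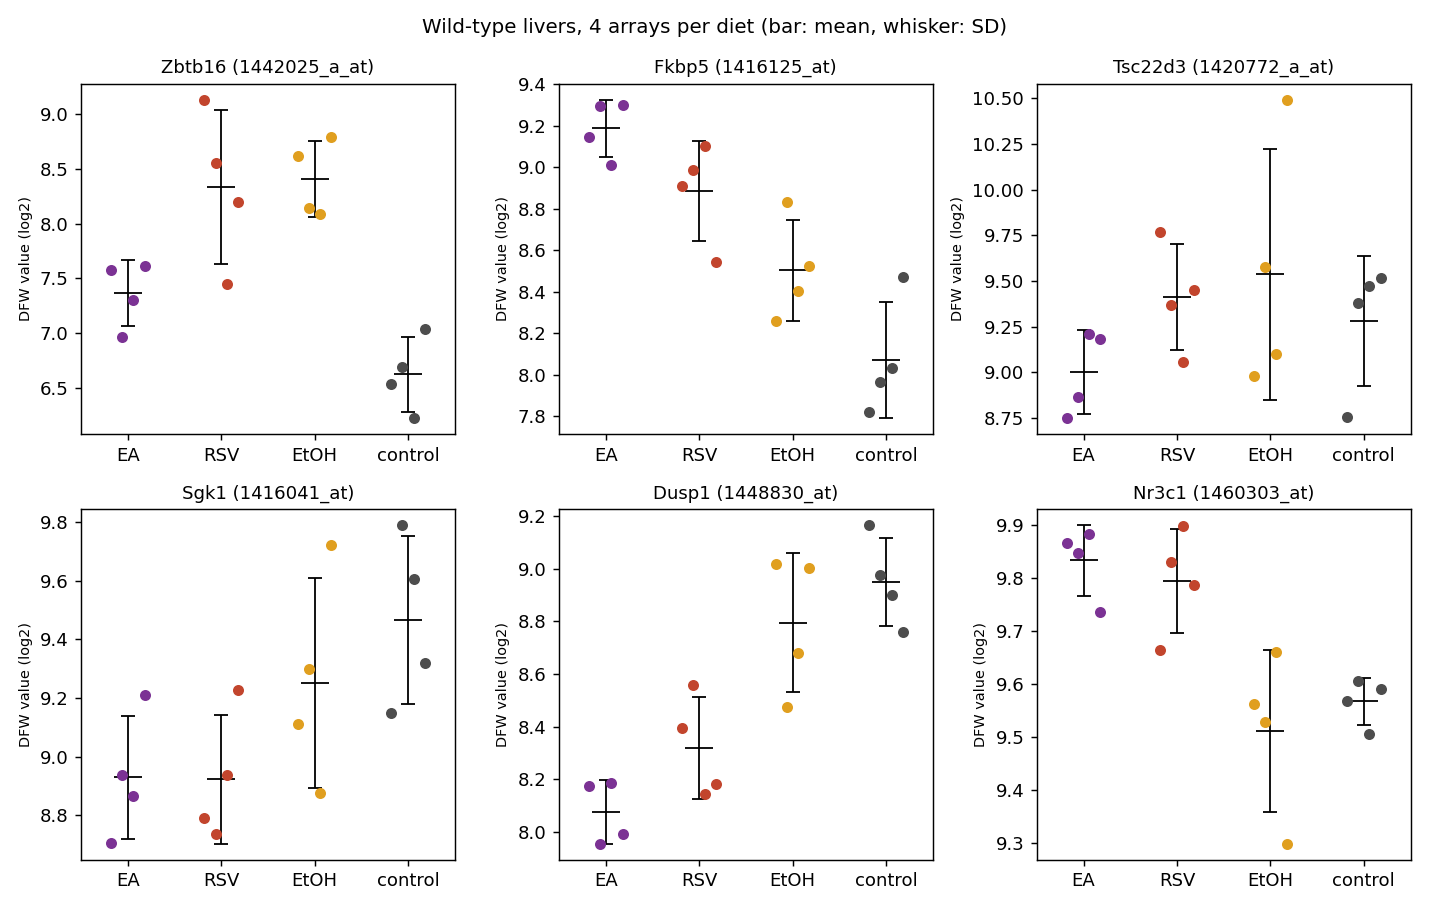
DFW values (log2, vertical axes) of the lead probe sets of the 6 members in wild-type livers, by diet (horizontal axes). Each point is an array, bars are means and whiskers are SD (n = 4 per diet). Zbtb16 is higher in each of the EtOH livers than in the control livers, Fkbp5 has its highest mean in the EA livers and Dusp1 its lowest, and Nr3c1 is higher in the EA and RSV livers than in the others.

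The other 4 probe sets of Zbtb16 gave the same order of EtOH and control. All 5 were called higher in EtOH than in control livers, by 0.28 to 1.86 (adjusted p 0.0072 to 0.0404 by limma), and 4 of 5 higher in RSV than in control livers. In EA against EtOH all 5 had no overlap and differed by -1.06 to -0.25, but none passed (adjusted p 0.0958 to 0.151 by limma). Over the 16 wild-type arrays they correlated with the lead at r = 0.865 to 0.996. The lead and 1442026_at are paired with Zbtb16 only by the gene table of the study, the other 3 by the platform annotation. That table lists probe sets selected on these same arrays as raised by ethanol and lowered by a polyphenol, and holds all 5. The naming of the lead and 1442026_at is therefore not independent of their differences here. The probe sets cover the same livers and are no replicates of each other.

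**Figure D2:**
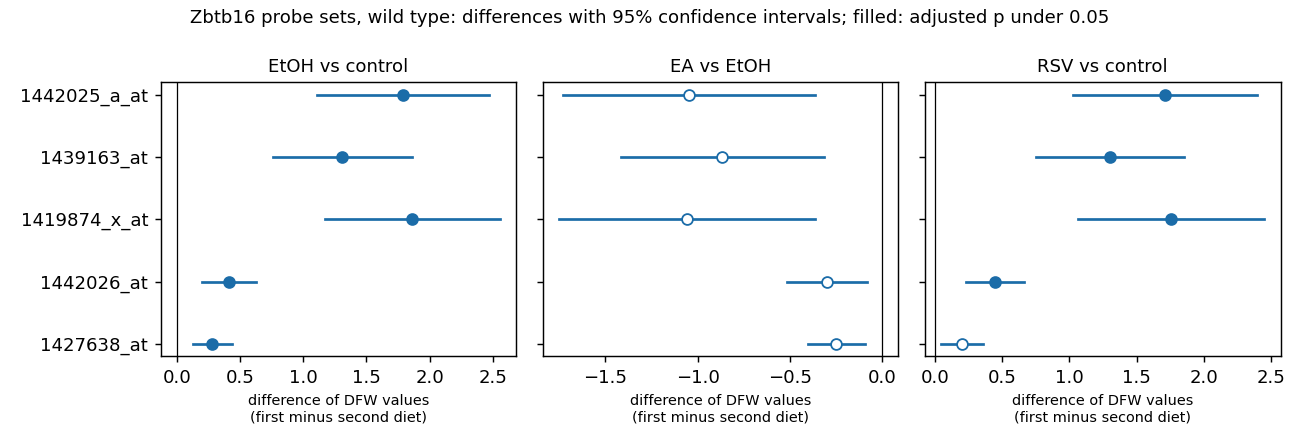
Differences of DFW values (horizontal axes, first minus second diet) at the 5 probe sets of Zbtb16 in wild-type livers, with 95% confidence intervals of limma. Filled symbols have an adjusted p under 0.05. All 5 are filled for EtOH against control, none for EA against EtOH, and 4 for RSV against control.

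Fkbp5, a co-chaperone of Hsp90 that lowers the affinity of the receptor for its hormone, had its highest mean with EA. In wild-type livers the lead probe set (1416125_at) had 9.14, 9.30, 9.01 and 9.30 with EA and 8.91, 8.99, 9.10 and 8.54 with RSV. It had 8.26, 8.83, 8.40 and 8.52 with EtOH and 7.82, 7.97, 8.03 and 8.47 on the control diet. The EA livers lay above each EtOH and control liver, and the RSV livers above each control liver, while RSV and EtOH overlapped.

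The EA livers averaged 9.19 ± 0.14 and the EtOH livers 8.50 ± 0.24 for Fkbp5, a difference of 0.68 (SE 0.16, adjusted p = 0.0472 by limma). This call stood close to the threshold: it was kept in 4 of the 16 fits that left out an array (adjusted p 0.0262 to 0.127). It was kept in 2 of 7 other alternatives. The call was lost with quantile normalization (adjusted p = 0.0509), without moderation of the variances (0.0567) and with a trended robust prior (0.0534). It was also lost with only the 2 groups compared (0.0989) and with the replicate number as a block (0.141), all by limma. Against the control livers, which averaged 8.07 ± 0.28, EA was higher by 1.12 (adjusted p = 0.000965) and RSV by 0.81 (adjusted p = 0.00522), both by limma and both kept in each of the 16 fits. EtOH was 0.43 above control (adjusted p = 0.143 by limma). This difference passed with quantile normalization (adjusted p = 0.0421 by limma), where 15234 of the 45037 probe sets were called. RSV was 0.38 above EtOH (adjusted p = 0.297 by limma), and EA 0.30 above RSV (95% interval -0.047 to 0.65, adjusted p = 0.621).
Of the other probe sets of Fkbp5, 1448231_at was compressed in wild-type livers, so its calls in the same directions concern differences of 0.000336 to 0.000686, and 1447736_at was not called in any comparison.

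Dusp1, a phosphatase that switches off MAP kinases, had its lowest mean with EA. Its single probe set (1448830_at) had 8.17, 7.96, 8.19 and 7.99 in the EA livers and 8.40, 8.56, 8.15 and 8.18 in the RSV livers. The EtOH livers had 9.018, 8.475, 8.681 and 9.003 and the control livers 9.16, 8.97, 8.90 and 8.76. Both polyphenol groups lay below all control livers and the EA group also below all EtOH livers. EA averaged 8.08 ± 0.12 and EtOH 8.79 ± 0.26, a difference of -0.72 (SE 0.13, adjusted p = 0.0179 by limma). It passed in 13 of the 16 fits without an array, and was lost without EtOH replicate 1 (adjusted p = 0.0567), EA replicate 4 (0.0583) or EA replicate 2 (0.0577), all by limma. Against control, EA was lower by 0.87 on the DFW scale (difference -0.87, adjusted p = 0.00138) and RSV by 0.63 (difference -0.63, adjusted p = 0.00756), both by limma. RSV differed from EtOH by -0.47 (adjusted p = 0.137), EtOH from control by -0.15 (adjusted p = 0.547), and EA from RSV by -0.24 (95% interval -0.53 to 0.049, adjusted p = 0.633).

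Nr3c1 itself moved within a narrow range. Its lead probe set (1460303_at) had 9.87, 9.85, 9.88 and 9.74 in the EA livers and 9.66, 9.83, 9.90 and 9.79 in the RSV livers. The EtOH livers had 9.56, 9.53, 9.66 and 9.30 and the control livers 9.57, 9.61, 9.51 and 9.59. The livers given a polyphenol all lay above those without one, though RSV replicate 1 and EtOH replicate 4 both round to 9.66. EA was above EtOH by 0.32 (SE 0.069, adjusted p = 0.0329 by limma) and above control by 0.27 (adjusted p = 0.023), and RSV was above control by 0.23 (adjusted p = 0.0371). RSV was above EtOH by 0.28 (adjusted p = 0.0964 by limma), which passed among the uncompressed probe sets (adjusted p = 0.024). Among those 727 probe sets were called, against 164 in the fit of all probe sets. EtOH differed from control by -0.055 (adjusted p = 0.691 by limma). The call for EA against EtOH was lost with the replicate number as a block (0.24, adjusted p = 0.0987 by limma) and with only the 2 groups compared (adjusted p = 0.15 by limma). The 3 calls were kept in 11, 12 and 9 of the 16 fits without an array, for EA against EtOH (adjusted p 0.0257 to 0.105), EA against control and RSV against control in turn.
A further probe set of Nr3c1, 1457635_s_at, gave larger differences of the same sign: 0.45 for EA against EtOH (adjusted p = 0.0192), 0.45 for EA against control (0.00478) and 0.43 for RSV against control (0.00572), all by limma. The other 4 were not called in any wild-type comparison, and 3 of them were compressed.

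In EA against EtOH, 3 of 6 members were thus called, 2 higher and 1 lower, where 2.37% of all probe sets were called, 1.1% higher and 1.26% lower. In EA against control 2 were called higher and 1 lower, where 14.2% of all probe sets were called, 6.06% higher and 8.15% lower. In RSV against control 3 were called higher and 1 lower, where 19.7% were called, 9.07% higher and 10.7% lower. The same 3 and 4 members did not overlap with control, against 22.5% of all probe sets for EA and 22.2% for RSV. In RSV against EtOH none of 6 passed by limma, where 0.364% of all probe sets did, and 3 had an unadjusted p under 0.05. Nr3c1 alone did not overlap there (5.96% of all probe sets). In EA against RSV none of 6 passed by limma either (0.0244% of all probe sets), with no member free of overlap (5.1% of all probe sets) and 1 at an unadjusted p under 0.05. Without moderation of the variances both counts also stayed at 0. The comparisons share arrays, the EtOH livers or the control livers, and their counts are not independent of each other. The shares over all probe sets include the compressed ones, and are higher over uncompressed probe sets alone. There, 1558 probe sets were called in EA against EtOH (4 members), 3427 in EA against control (4 members) and 3506 in RSV against control (5 members). In EtOH against control there were 1769 (1 member). The uncompressed probe sets are what remains of 45037 once the compressed 85.3% are set aside. As shares of that remainder, the counts are far larger than the shares over all probe sets. The members, all uncompressed at their lead probe sets, stand against that larger background.

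Tsc22d3, which encodes the glucocorticoid-induced leucine zipper protein GILZ, was not called in any wild-type comparison. Its lead probe set (1420772_a_at) had 8.75, 8.86, 9.21 and 9.18 with EA, 9.77, 9.37, 9.06 and 9.45 with RSV, 8.98, 9.58, 9.10 and 10.49 with EtOH and 8.76, 9.38, 9.47 and 9.52 on the control diet. EtOH replicate 5 was the highest of the 16 livers, and all diets overlapped. EtOH was 0.26 above control (adjusted p = 0.669), which turned to -0.062 without that liver. EA was 0.54 on the DFW scale below EtOH (difference -0.54, adjusted p = 0.451), or -0.22 without that liver, and 0.28 below control (difference -0.28, adjusted p = 0.589), while RSV differed from EtOH by -0.12 (adjusted p = 0.886) and from control by 0.13 (adjusted p = 0.788), all by limma.

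Sgk1, a kinase that acts on ion channels and transporters, was not called either. In wild-type livers its probe set (1416041_at) had 8.71, 8.94, 8.87 and 9.21 with EA and 8.79, 8.74, 8.94 and 9.23 with RSV. It had 9.11, 9.30, 8.88 and 9.72 with EtOH and 9.15, 9.79, 9.61 and 9.32 on the control diet. The polyphenol livers lay low and the control livers high, with an overlap of the highest liver of each polyphenol group. EA differed from control by -0.54 (adjusted p = 0.0822) and RSV by -0.54 (adjusted p = 0.0643). Both passed with quantile normalization (adjusted p = 0.0413 for EA and 0.0408 for RSV) and among the uncompressed probe sets (0.0246 and 0.0233), all by limma. With quantile normalization, however, 24188 of the 45037 probe sets were called for EA against control and 24999 for RSV against control. Among the uncompressed ones 3427 and 3506 were called, a far larger share than over all probe sets. Sgk1 differed between EA and EtOH by -0.32 (adjusted p = 0.492), between RSV and EtOH by -0.33 (adjusted p = 0.451) and between EtOH and control by -0.21 (adjusted p = 0.56). Without EtOH replicate 5, the highest of the EtOH livers, these were -0.16, -0.17 and -0.37, and without EtOH replicate 4 the last was -0.089.

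The members therefore did not move as one group. In EtOH against control their median difference was 0.10, in EA against EtOH -0.43 and in RSV against EtOH -0.10, while the median over all genes was 3.42e-05, 3.67e-06 and 1.01e-05 for the same comparisons. Most of those genes had compressed lead probe sets. Over the uncompressed probe sets the medians were -0.040, -0.025 and -0.040 in turn. Over the 16 wild-type arrays, which share the diets, Fkbp5 and Dusp1 ran against each other (r = -0.893), as did Dusp1 and Nr3c1 (r = -0.783). Zbtb16 correlated with Fkbp5 at r = 0.313 and with Dusp1 at r = -0.092. After the mean of each diet was taken off, Fkbp5 and Dusp1 correlated at r = -0.53 and Tsc22d3 and Sgk1 at r = 0.666. These values describe the arrays and carry no test.

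In CAR deficient livers no member was called in any of the 6 comparisons by limma, with or without moderation of the variances. The share of all probe sets called was 0.344% for EtOH against control, 0.18% for EA against control, 0.06% for RSV against control and 0% for the others. At an unadjusted p under 0.05 there was 1 member for EtOH against control (Fkbp5), 1 for EA against EtOH (Sgk1), 1 for RSV against EtOH (Sgk1), 1 for RSV against control (Tsc22d3) and none for the other 2.

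Zbtb16 in the CAR deficient livers had 8.86, 7.79 and 8.62 with EA and 7.36, 7.63 and 9.68 with RSV. It had 9.70, 8.58 and 8.76 with EtOH and 8.02, 8.63 and 7.05 on the control diet. The diets overlapped, and single livers of one diet lay more than 2 units apart. EtOH averaged 9.02 ± 0.60 and control 7.90 ± 0.80 (SD, n = 3 each), a difference of 1.11 (95% interval -0.45 to 2.67, adjusted p = 0.572 by limma). Without EtOH replicate 1 it was 0.77 (adjusted p = 0.768). EA differed from EtOH by -0.59 (95% interval -2.15 to 0.97) and RSV by -0.79 (95% interval -2.35 to 0.77), with adjusted p of 0.85 and 0.959 by limma. Without EtOH replicate 1 these were -0.25 and -0.45, and without RSV replicate 3 the second was -1.52.

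Fkbp5 in the CAR deficient livers had higher means on the 3 diets with ethanol than on the control diet. The values were 10.46, 10.16 and 10.52 with EA, 10.17, 9.93 and 11.29 with RSV, 11.74, 9.67 and 10.34 with EtOH and 9.84, 9.15 and 8.92 on the control diet. EA and RSV livers all lay above the control livers, and EtOH livers did so except for replicate 2. Fkbp5 was 1.08 higher on EA (adjusted p = 0.515), 1.16 higher on RSV (adjusted p = 0.527) and 1.28 higher on EtOH (adjusted p = 0.398) than on the control diet, by limma and none past the threshold. Without EtOH replicate 1, EtOH was 0.70 above control. EA differed from EtOH by -0.20 and RSV by -0.12 (adjusted p = 0.949 and 0.996 by limma), both of which turned positive, to 0.38 and 0.46, without that array. For the groups without overlap, the share over all probe sets was 21.7% in EA against control and 17.1% in RSV against control, where 3 and 2 of the 6 members had none. In EA against RSV no member was free of overlap (6.37% of all probe sets).

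Tsc22d3 ran the other way in CAR deficient livers, with 9.80, 9.97 and 10.08 on EA, 9.48, 9.16 and 10.31 on RSV, 10.71, 9.78 and 10.06 on EtOH and 10.83, 10.68 and 10.41 on the control diet. The EA and RSV livers all lay below the control livers, by -0.69 (adjusted p = 0.462) and -0.99 (adjusted p = 0.325) in the mean, by limma. EtOH differed from control by -0.46 (adjusted p = 0.634) and overlapped with it. Without EtOH replicate 1 the difference was -0.72 (adjusted p = 0.431 by limma).

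Sgk1 had 9.71, 9.63 and 9.42 with EA, 9.40, 9.66 and 9.98 with RSV, 10.94, 10.03 and 10.10 with EtOH and 9.73, 9.92 and 9.91 on the control diet of CAR deficient mice. Each EtOH liver was above all 9 others. EtOH was 0.50 above control (adjusted p = 0.453), EA was 0.77 on the DFW scale below EtOH (difference -0.77, adjusted p = 0.48) and RSV 0.68 below it (difference -0.68, adjusted p = 0.885), by limma. Groups that do not overlap made up 19% of all probe sets in EtOH against control, 13.5% in EA against EtOH and 7.92% in RSV against EtOH. Without EtOH replicate 1 the differences of Sgk1 were 0.21, -0.48 and -0.38.

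Dusp1 had 10.87 in CAR deficient EtOH replicate 1, against 9.16 and 8.99 in the other 2 EtOH livers and 9.67, 9.18 and 9.19 in the control livers. EtOH was 0.32 above control with that liver and differed by -0.28 without it (adjusted p = 0.849 and 0.792 by limma). For Nr3c1 the same liver was the lowest of the genotype, at 9.75, with 10.16 and 10.27 in the other EtOH livers and 9.81, 10.06 and 10.13 in the control livers. EtOH differed from control by 0.056 for Nr3c1 (adjusted p = 0.925 by limma), and by 0.21 without that liver. In Zbtb16, Fkbp5, Sgk1 and Dusp1 the highest of the 12 livers was this one, and in Tsc22d3 it was the next to highest.

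**Figure D3:**
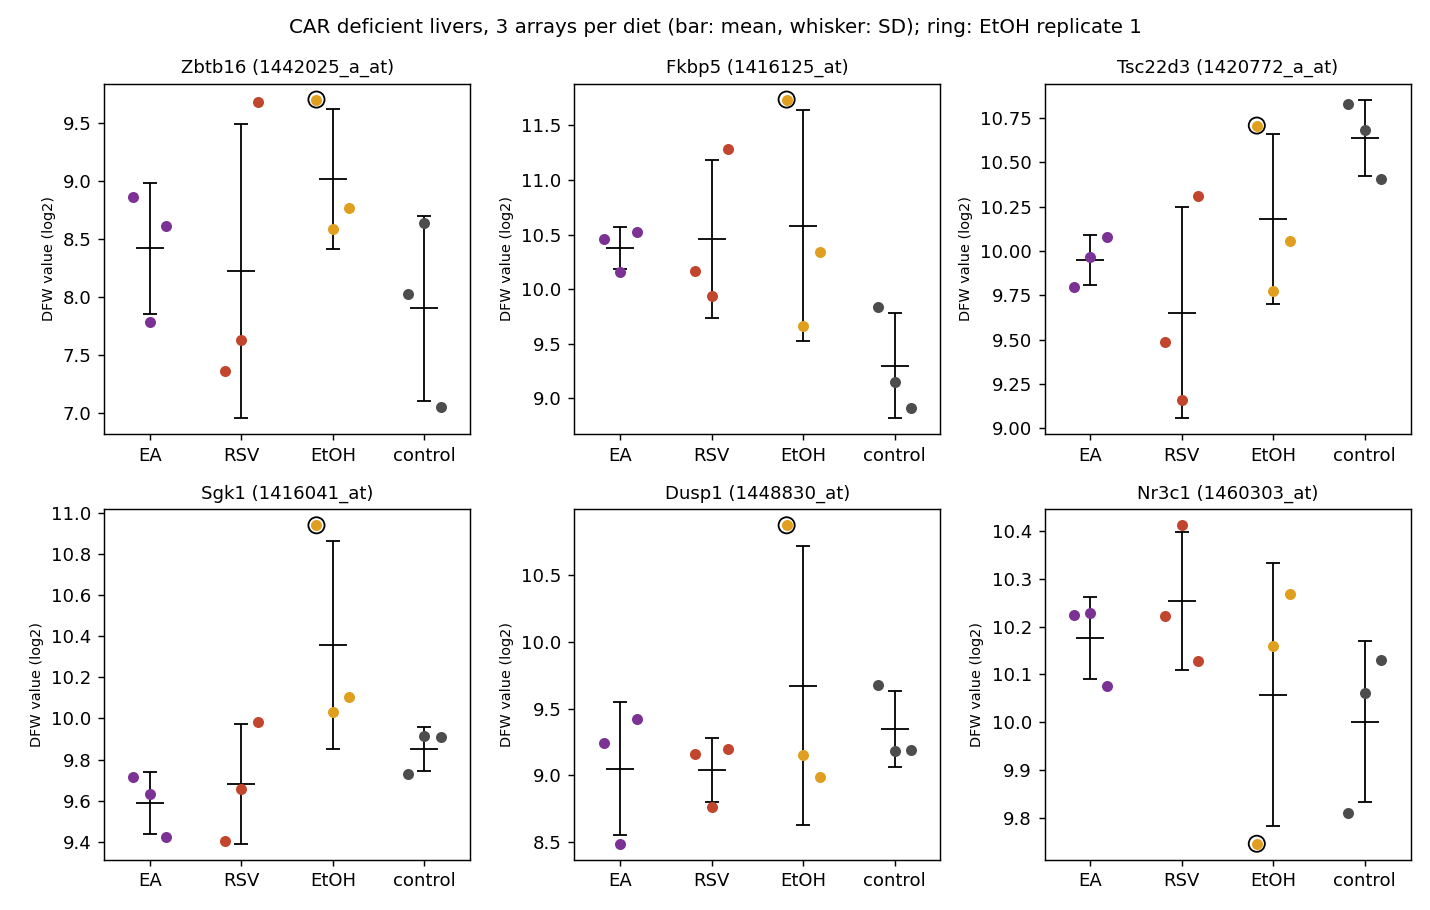
DFW values (log2, vertical axes) of the lead probe sets of the 6 members in CAR deficient livers, by diet (horizontal axes). Each point is an array, bars are means and whiskers are SD (n = 3 per diet). EtOH replicate 1, ringed, is the highest liver for Zbtb16, Fkbp5, Sgk1 and Dusp1 and the lowest for Nr3c1.

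After the diet means were taken off, 10 of the 15 pairs of members had a positive correlation over the 12 CAR deficient arrays, against 7 of 15 over the 16 wild-type arrays. Zbtb16, Fkbp5, Tsc22d3, Sgk1 and Dusp1 were all positively correlated with one another in the CAR deficient livers, up to r = 0.923 for Fkbp5 and Tsc22d3. Nr3c1 ran against each of them, down to r = -0.891 with Dusp1. Without EtOH replicate 1, a check added after the data were seen, 10 of the 15 pairs were positive as well, but Sgk1 and Dusp1 turned to r = -0.255 and Sgk1 and Nr3c1 to 0.184, while Fkbp5 and Tsc22d3 had r = 0.902 and Dusp1 and Nr3c1 -0.74. The correlations were not tested.

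The effect of a diet was set against that in the other genotype by an interaction term, fitted to the 28 arrays, with the limit that the scales of the genotypes may differ. Its values are the wild-type difference minus the CAR deficient one. None of the 6 members passed in EtOH against control, EA against EtOH or RSV against EtOH, against 2.22%, 0.158% and 0% of all probe sets, by limma. At an unadjusted p under 0.05 there was 1 member (Sgk1) in EtOH against control and none in the other 2. For EtOH against control, the value was 0.68 for Zbtb16 (SE 0.69, adjusted p = 0.681 by limma). It was -0.85 for Fkbp5 (SE 0.51, adjusted p = 0.431) and -0.72 for Sgk1 (SE 0.31, adjusted p = 0.251), the smallest adjusted p among the 6 lead probe sets. A further probe set of Fkbp5, 1448231_at, which was compressed in wild-type livers, had -0.96 (adjusted p = 0.185). For EA against EtOH, the values were -0.45 for Zbtb16 (adjusted p = 0.932) and 0.88 for Fkbp5 (adjusted p = 0.678), by limma. Leaving out CAR deficient EtOH replicate 1 made the values of Fkbp5 and Sgk1 smaller in size and those of Zbtb16 larger. Without that array, the values for EtOH against control were 1.02 for Zbtb16, -0.27 for Fkbp5 and -0.43 for Sgk1, and those for EA against EtOH were -0.80 for Zbtb16 and 0.31 for Fkbp5. A call in wild-type livers and none in CAR deficient livers is therefore not shown to be a difference between them.

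**Figure D4:**
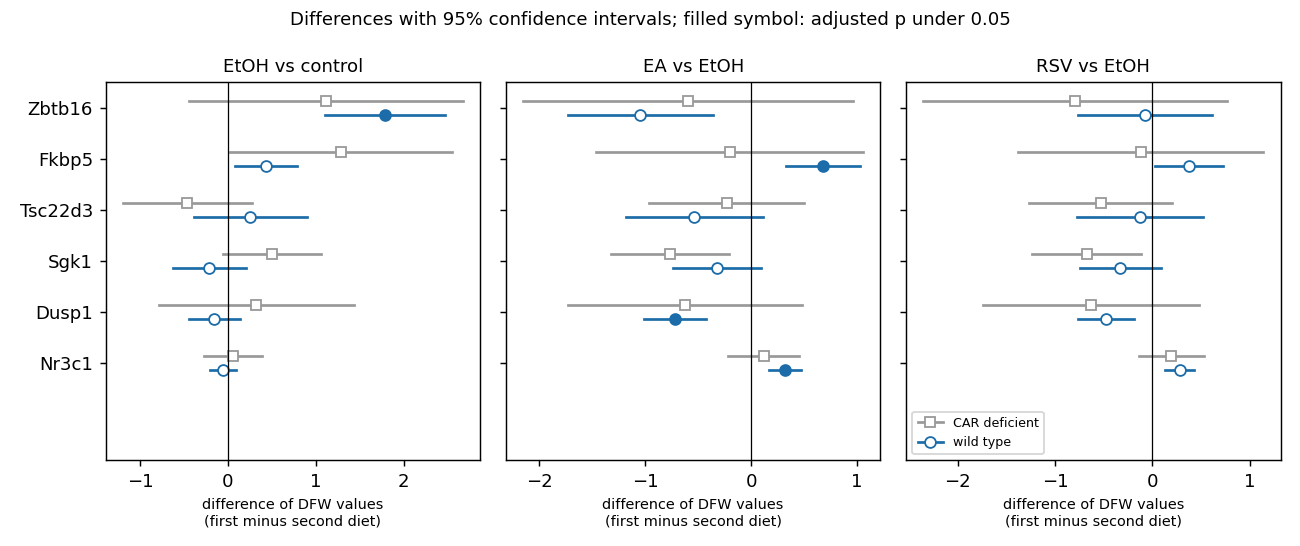
Differences of DFW values (horizontal axes, first minus second diet) for the 6 members in CAR deficient and wild-type livers, with 95% confidence intervals of limma. Filled symbols have an adjusted p under 0.05, which 1 member in EtOH against control and 3 in EA against EtOH reach, all in wild-type livers, and the intervals are wider in the CAR deficient livers.

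The machinery around the receptor was read from 6 lists of genes chosen by their known roles, with earlier results of these data known. Their counts are therefore not independent of these data. The study's gene table of probe sets raised by ethanol and lowered by the polyphenols already held Hsp90aa1 and Hspa8. In each list most measured genes were uncompressed in wild-type livers, unlike the genes as a whole. Of the receptor chaperones, 7 of 10 were measured by a probe set that names them alone. In wild-type livers 5 of 7 rose with EtOH against control and none fell, with a median difference of 0.29, while 2.99% of all genes were called higher and 4.05% lower. They were Hsp90aa1 (0.54), Stip1 (0.42), Ahsa1 (0.36), Fkbp4 (0.29) and Hspa8 (0.29), all members of the Hsp90 and Hsp70 cycle that loads the receptor. With EA against EtOH 3 of 7 fell, Fkbp4 (-0.31), Stip1 (-0.29) and Hspa4 (-0.23), where 1.58% of all genes were called higher and 1.64% lower. With RSV against EtOH only Hspa4 fell (-0.29, adjusted p = 0.0484 by limma, and 0.0595 without moderation of the variances). Fkbp4, which promotes hormone binding where Fkbp5 opposes it, was lower with EA than with EtOH, while Fkbp5 was higher, a call close to the threshold. The mean of Fkbp4 was 8.89 with EA, 9.20 with EtOH and 8.91 in control livers. A link between Fkbp4 and Fkbp5 was not tested.

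Of the genes for ligand supply, 6 of 8 were measured. None was called in EtOH against control, EA against EtOH or RSV against EtOH by limma, and 2, 2 and 0 of them had an unadjusted p under 0.05. Serpina6, the plasma carrier of glucocorticoids, was 0.52 higher in EA than in control livers (adjusted p = 0.0204), and Nr3c2, the mineralocorticoid receptor, was lower in RSV than in control livers (-0.31, adjusted p = 0.0195), by limma. Hsd11b1, which regenerates active hormone inside hepatocytes, was not called in any comparison. Of 7 measured coregulators, Hexim1, which binds the receptor and P-TEFb, fell in EtOH against control (-0.39), in EA against EtOH (-0.97), in EA against control (-1.37) and in RSV against control (-0.81). The other calls of that list, Ncoa1 and Ep300 against control, concerned compressed probe sets with differences of at most 0.00041 in size.

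Of 26 measured other genes that glucocorticoids induce, 4 rose with EtOH against control and none fell, with a median of 0.28. They were the metallothionein Mt2 (1.82), the transcription factor Cebpb (0.65), the lipase inhibitor Angptl4 (0.56) and the tryptophan dioxygenase Tdo2 (0.21). With EA against EtOH only Mt2 passed (1.91, adjusted p = 0.0454 by limma, and 0.0547 without moderation of the variances), and with RSV against EtOH none did, with 5 at an unadjusted p under 0.05. Against control, 8 rose and 1 fell with EA, where 8.29% of all genes were called higher and 9.67% lower, and 10 rose and 1 fell with RSV, where the shares were 11.2% and 12.6%. Both counts of genes that rose include Fam107a, whose compressed probe set differed by only 0.00019 with EA and 0.00015 with RSV. Mt2 (3.74 with EA, 3.49 with RSV) and Mt1 (2.83 and 2.41) had the largest differences, and both also respond to metals. The receptor target Klf9 rose by 0.52 and 0.68, and the clock gene Per1 by 1.22 with RSV. G6pc, the enzyme that releases glucose, fell by 1.85 on the DFW scale with EA and by 1.46 with RSV. Tat and Pck1, classic glucocorticoid targets of the liver, were not called in any comparison.

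**Figure D5:**
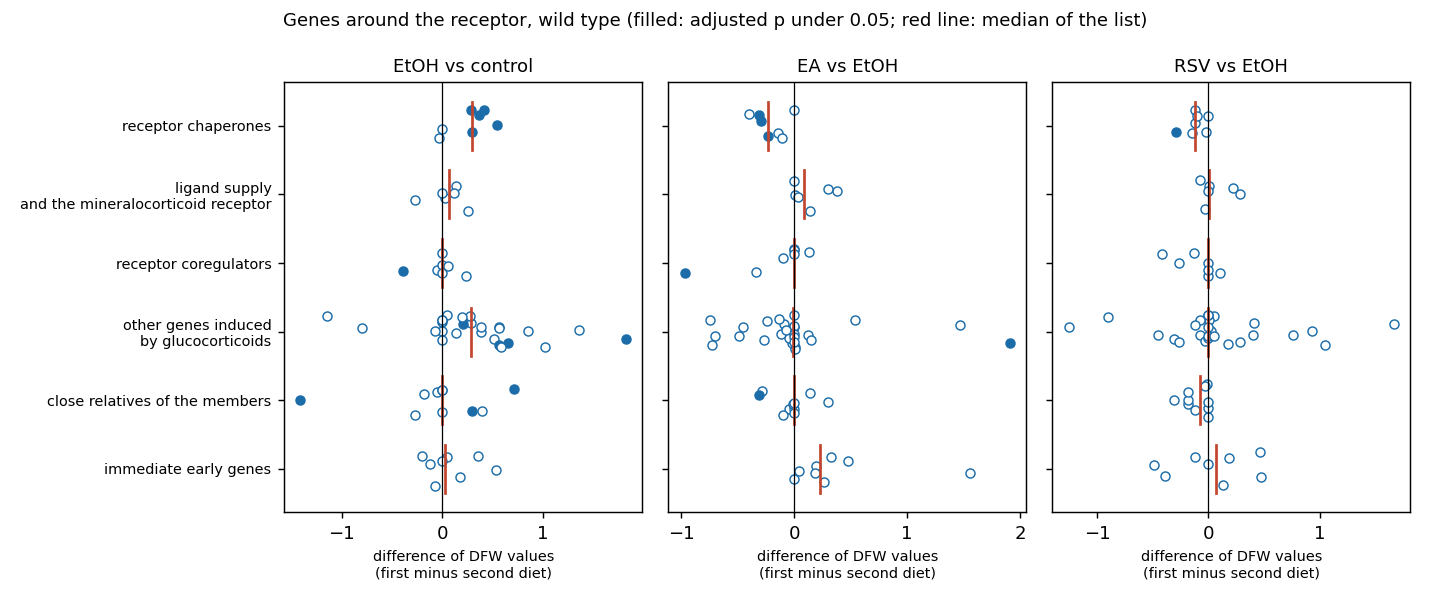
Differences of DFW values (horizontal axes, first minus second diet) of the genes of 6 lists around the glucocorticoid receptor in wild-type livers, each point a gene at its lead probe set. Filled points have an adjusted p under 0.05 and red lines are the medians of the lists. Of the receptor chaperones, 5 of 7 are filled and to the right of 0 in EtOH against control, and 3 of 7 are filled and to the left in EA against EtOH.

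Among the close relatives of the members, Tsc22d1 fell with EtOH (-1.41), EA (-1.46) and RSV (-1.60) against control, while Tsc22d3 was not called. Sgk2 was higher in EtOH than in control livers (0.71, adjusted p = 0.0312 by limma), while Sgk1 was not called. Of the 8 immediate early genes, which like Dusp1 react to growth signals within the hour, Egr1 was higher in EA than in control livers (2.09, adjusted p = 0.0105 by limma) and no other gene was called in any comparison. In CAR deficient livers none of the 64 entries of the 6 lists was called in any comparison by limma, and 2 to 12 of them had an unadjusted p under 0.05.

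Markers of another cell type moved with the ethanol diets in wild-type livers. Of 8 Kupffer cell markers, 6 were called lower in EtOH than in control livers, 7 in EA than in control livers and 6 in RSV than in control livers, and none in EA or RSV against EtOH, while 4.05%, 9.67% and 12.6% of all genes were called lower in the first 3 comparisons. Each of these counts against control includes Timd4, whose compressed probe set differed by only -0.00039 to -0.00029. Their mean value ran from 8.58 to 8.64 in EA, 8.54 to 8.71 in RSV, 8.56 to 8.70 in EtOH and 8.77 to 8.89 in control livers, and the defining markers Adgre1 (8.19 in control livers) and Clec4f (9.18) were measured. Fewer cells of a type and less RNA per cell cannot be told apart in whole liver. Zbtb16, Fkbp5, Dusp1 and Nr3c1 differed from control beside this change, and its part in their differences was not tested. For EA against EtOH the mean values of the markers overlapped. Among markers of other cells, Stab2 of sinusoidal endothelial cells was lower in EtOH (-0.45) and RSV livers (-0.39) than in control livers, Ptprc of leukocytes was lower in EtOH (-0.13) and RSV livers (-0.10), Lyve1 (0.71) and Clec4g (0.17) of sinusoidal endothelial cells were higher in EA livers, and of stellate cells Lrat was higher in RSV livers (0.48) and Dcn in EA (0.20) and RSV livers (0.14). Of the hepatocyte markers, Apoa1 was lower in EtOH (-0.079) and EA livers (-0.074) than in control livers, and Apob was lower in EA livers (-0.19). Cps1 was higher in RSV than in control livers (0.30). The other calls among these markers concerned probe sets with differences of at most 0.0033 in size. In CAR deficient livers the mean of the Kupffer cell markers ran from 8.95 to 9.21 in EA, 9.06 to 9.24 in RSV, 9.01 to 9.22 in EtOH and 9.28 to 9.48 in control livers.

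By a fixed measure of likeness, Pearson's r over the 16 wild-type arrays among 3856 genes with uncompressed lead probe sets, the genes closest to Zbtb16 were Nup62 (r = 0.964), Zfyve1 (0.894), Tmem205 (0.886), Ppa1 (0.874) and Bpnt1 (0.871). Nup62, a protein of the nuclear pore, had means of 8.06 in EA, 8.21 in RSV, 8.23 in EtOH and 7.96 in control livers, the same order as Zbtb16. The genes most opposed were Hnrnpa0 (-0.928), an RNA-binding protein, Nr2f2 (-0.912), a nuclear receptor with no settled ligand, and Zbtb11os1 (-0.902). Nr2f2 averaged 9.23 in EA, 9.10 in RSV, 9.11 in EtOH and 9.56 in control livers. Over the 12 CAR deficient arrays r with Zbtb16 was -0.786 for Nr2f2, 0.493 for Ppa1, -0.098 for Hnrnpa0 and -0.001 for Tmem205. It was 0.568 for Bpnt1, 0.459 for Nup62, 0.177 for Zfyve1 and -0.318 for Zbtb11os1, whose probe sets were all compressed there. The arrays share diets, and the values are a ranking with no test.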

How the data were processed

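The values analysed were the deposited log2 expression values. To make them, the authors condensed the probes of Affymetrix mouse genome arrays by DFW in R, apart for CAR deficient (12 arrays) and wild-type livers (16 arrays). No further normalization was applied. Array controls (64 probe sets) were left out, as were 26 probe sets blank on the CAR deficient arrays, which left 45011 probe sets in CAR deficient and 45037 in wild-type livers. Probe sets were named by the platform annotation (34947 name 1 gene, 932 several, 9158 none), and 2 of Zbtb16 by the study's gene table.

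Groups came from the sample titles of wild-type arrays and from the agent and genotype labels of CAR deficient arrays, and replicate numbers from the titles. Diets were compared with limma 3.58.1 in R 4.3.3 (lmFit and eBayes, Benjamini-Hochberg over all probe sets), in place of the study's rank product, whose null permutes over genes. The genotypes were set against each other by an interaction term. Genes named are the 6 members, called genes of the lists, with a few uncalled ones chosen after their values were seen, and the 5 genes most like and 3 most unlike Zbtb16. The members and lists were chosen with earlier results of these data known. Alternatives were quantile normalization, no moderation, a trended robust prior, only probe sets above the median level or uncompressed, only the 2 groups compared, a replicate block and leaving out each array.

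Arrays of equal number had correlated residuals above 0.1 in every pair only for EA against control in wild-type livers (0.156 to 0.568) and EtOH against control in CAR deficient livers (0.292 to 0.409), and the block changed no call of a member there. On simulated data, limma recovered 46 of 100 probe sets changed by 1 in EtOH against control of CAR deficient livers (45011 probe sets) and 94 of 100 in wild-type livers (45037 probe sets). The changed probe sets were drawn from the uncompressed ones, another 100 were changed by 0.5, and the noise was independent between arrays and probe sets. The data differ from these settings, so the rates need not hold for the members. Promoter windows were searched with Python 3.11.15.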

Additional observations from a re-analysis of the deposited data

How the results depend on the processing

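The number of members called was kept within 1.5 times under most alternatives. It moved to 2 in EtOH against control with quantile normalization. In RSV against EtOH it moved to 1 with quantile normalization and to 2 among uncompressed probe sets. In EA against EtOH it was 0 with only the 2 groups compared, 1 with the replicate block, and 0 to 3 when an array was left out. Of the 54 differences reported, 1148 of 1218 values under the alternatives kept their direction and side of the threshold. With the replicate block, wild-type Tsc22d3 and Nr3c1 turned to -0.072 and 0.026 in EtOH against control, and Zbtb16 and Tsc22d3 to 0.065 and 0.20 in RSV against EtOH. Leaving out an array turned the sign of these uncalled wild-type differences: Tsc22d3 (-0.062 to 0.44) and Nr3c1 (-0.10 to 0.016) in EtOH against control, Zbtb16 (-0.34 to 0.22) and Tsc22d3 (-0.31 to 0.19) in RSV against EtOH, and Tsc22d3 in RSV against control (-0.043 to 0.25). Among the CAR deficient differences given in the text it did so for Fkbp5 in RSV against EtOH (-0.58 to 0.46) and EA against EtOH (-0.66 to 0.38). It did so too for Nr3c1 (-0.049 to 0.21) and Dusp1 (-0.28 to 0.67) in EtOH against control. The probe sets called in EtOH against control of wild-type livers numbered 2501, with 15234 after quantile normalization, 1514 with the replicate block and 567 with only the 2 groups compared. The cause was not tested. In CAR deficient livers the small number of arrays limits what the count of 0 can show. The pairing of replicate numbers elsewhere rests on the number alone, since the other comparisons had pairs with residual correlations under 0.1.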
